A study of Caenorhabditis elegans with 18 samples.

Results

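The metallothioneins mtl-1 and mtl-2 were followed through a heat-shock experiment in Caenorhabditis elegans. The members are the transcript rows that the RefSeq-to-gene table of the WBcel235 assembly assigns to either gene. Each gene had 1 transcript and 1 row, so the members are 2 of the 39798 genes with a row in the count table. Both genes lie on chromosome V on the minus strand, in 2 exons each, and the Ensembl annotation of WBcel235 places no other gene over either. The coding sequence of mtl-1 (WBGene00003473) spans 228 bases, or 75 codons, with an intron of 120 bases. That of mtl-2 (WBGene00003474) spans 192 bases, or 63 codons, with an intron of 57 bases. No other gene in the table had the same counts as either of them.

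Metallothioneins are small, cysteine-rich proteins that bind zinc, copper and cadmium and buffer cells against excess metal. In C. elegans both genes are known to be induced by cadmium, mainly in the intestine, where the GATA factor ELT-2 is needed for that induction, and mtl-1 is also expressed in the pharynx without added metal. mtl-1 is a widely used target of DAF-16, the FOXO transcription factor held in check by insulin signalling, and PQM-1 is a zinc-finger factor.

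RNA was sequenced from whole day 1 adults of 3 strains at 20 °C or after heat. The strains were N2 Bristol, the wild type, the pqm-1(ok485) strain RB711, labelled a null mutant, and the daf-16(mu86) strain CF1038. For the heat groups, adults spent 1 h in a water bath at 35 °C and were collected 2 h after return to 20 °C. Every group was grown from synchronised larvae, 10000 of them, on agar with the Escherichia coli strain OP50-1. Each mutation was carried by 1 strain, and each library pools many whole animals, so fewer cells of a type and less RNA per cell cannot be told apart. The labels name 18 samples, 3 biological replicates in each of 6 groups, and do not say how separate the replicate cultures were, so p-values measure the spread between these samples only.

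The comparisons rest on the 12 libraries labelled replicate 2 and 3, which is 2 per group. The column named for the first daf-16 20 °C sample holds coding lengths in place of counts, and replicate 1 libraries go against their labels in hsp-16.2, a small heat shock protein gene. In the 12 libraries used, hsp-16.2 lay between 0.0461 and 0.420 CPM (counts scaled by the library total) at 20 °C and between 263.4 and 564.4 CPM after heat. Among the replicate 1 libraries, those labelled N2 and pqm-1 at 20 °C had 208.7 and 324.3 CPM of it, while those labelled daf-16, N2 and pqm-1 at 35 °C had 0.256, 0.417 and 0.0391 CPM. Gene counts in the libraries used summed to between 18650463 and 33399557. In the pqm-1 strain pqm-1 itself was not at 0, with 12.55 and 9.96 CPM at 20 °C against 26.1 and 24.1 CPM in N2. That difference, -1.16 on the log2 scale, did not pass the test used for the members (adjusted p = 0.0584, edgeR quasi-likelihood test). After heat it was -0.69 and did not pass either (adjusted p = 0.18 by edgeR). The daf-16 strain stood above the pqm-1 strain in pqm-1, by 1.33 at 20 °C and 1.32 after heat. Both of these passed (adjusted p = 0.00878 and 0.00306 by edgeR). daf-16 counts did not mark the daf-16 strain, at 115.0 and 97.7 CPM at 20 °C against 105.5 and 88.0 CPM in N2.

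The 2 genes moved in opposite directions when N2 worms were heated. mtl-1 rose 15.7-fold from a level of only a few reads, while mtl-2 fell by 1.31 on the log2 scale from a high level. These values are for replicates 2 and 3 only. The library labelled N2 35 °C replicate 1 had the hsp-16.2 level of unheated worms but 4.45 CPM of mtl-1. The N2 libraries used at 20 °C had 0.290 and 0.417 CPM of mtl-1 on the same scale. After heat the mtl-1 level of daf-16 worms was 11.6-fold below that of N2, and the pqm-1 strain lay between them. No comparison of strains passed the test for mtl-2.

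mtl-1 was counted in very few reads at 20 °C. N2 at 20 °C had 6 and 10 counts, the pqm-1 strain 3 and 17, and the daf-16 strain 2 and 4. After heat N2 had 146 and 187 counts, the pqm-1 strain 39 and 43, and the daf-16 strain 7 and 13. The N2 libraries after heat were the highest of the 12, and the daf-16 libraries at 20 °C were among the lowest, beside the lower pqm-1 library. At such counts the counting error alone is wide: 95% exact Poisson intervals ran from 0.619 to 8.77 around 3 counts and from 9.90 to 27.2 around 17 counts, so the 2 pqm-1 libraries at 20 °C differed beyond it. Intervals cover counting error only, since reads are not independent molecules.

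mtl-2 was counted far more often, with at least 429 reads in every library used. N2 had 1446 and 1634 counts at 20 °C and 672 and 976 after heat. The pqm-1 strain had 1338 and 1355 counts at 20 °C and 632 and 568 after heat, and the daf-16 strain had 1309 and 1411 counts and then 429 and 586. The heated libraries of each strain were all below its 20 °C libraries.

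**Figure D1:**
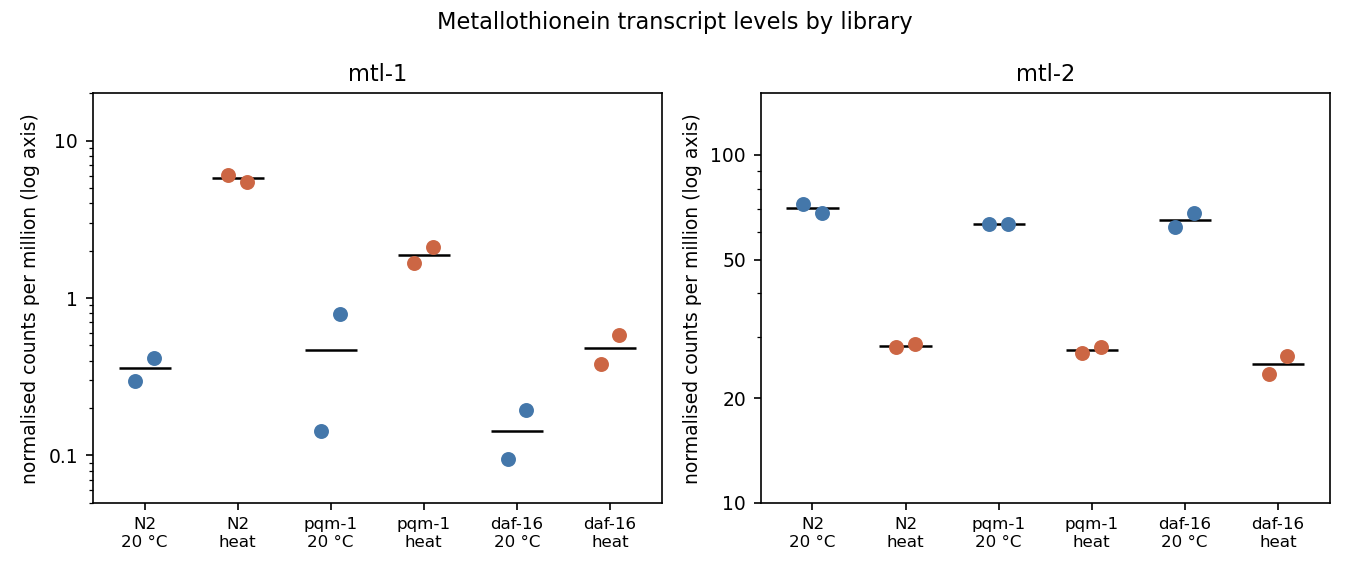
Level of mtl-1 (left) and mtl-2 (right) in each of the 12 libraries, in CPM scaled with TMM factors on a log axis, by group; points are libraries and bars group means. The heated N2 libraries stand highest for mtl-1, at 6.09 and 5.47 CPM, while the heated libraries of all 3 strains stand lowest for mtl-2, between 23.5 and 28.5 CPM.

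Scaled to library size and composition with TMM factors, mtl-1 in N2 was at 0.299 and 0.417 CPM at 20 °C and at 6.09 and 5.47 CPM after heat. The 2 temperatures did not overlap. The rise was 3.97 on the log2 scale (SE 0.40, 95% interval 3.10 to 4.84, adjusted p = 2.85e-05, edgeR quasi-likelihood test with Benjamini-Hochberg adjustment over 14286 genes, as in every adjusted p here). It was the 56th largest rise among the genes tested. mtl-1 met the filter on low counts through heated libraries, so its ranks among the genes tested are descriptive only. Counting error alone gave a ratio of 15.8 with an interval of 9.56 to 27.9. mtl-2 in N2 was at 72.1 and 68.2 CPM at 20 °C and at 28.04 and 28.5 CPM after heat, without overlap. It fell by 1.31 on the log2 scale (SE 0.08, adjusted p = 1.02e-06 by edgeR). Both members thus passed in N2, where 34.7% of all genes tested did, 16.9% of them as higher and 17.8% as lower.

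In the pqm-1 strain mtl-1 was at 0.142 and 0.795 CPM at 20 °C and at 1.67 and 2.12 CPM after heat. Both heated libraries lay above both unheated ones, but the unheated pair was itself far apart. The rise was 1.99 on the log2 scale, or 3.97-fold (SE 0.45, 95% interval 1.01 to 2.96, adjusted p = 0.00646 by edgeR). Its size rests on single 20 °C libraries of the pqm-1 strain: it was 1.24 without replicate 2 and 3.67 without replicate 3, and the call held with each of the 12 libraries left out. mtl-2 in the pqm-1 strain was at 63.4 CPM in both libraries at 20 °C and at 27.0 and 27.99 CPM after heat. It fell by 1.21 on the log2 scale (SE 0.08, adjusted p = 2.09e-06 by edgeR). Both members passed here, against 25.1% of all genes tested.

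In the daf-16 strain mtl-1 was at 0.0945 and 0.193 CPM at 20 °C and at 0.384 and 0.587 CPM after heat. The heated libraries lay above the unheated ones without overlap, on 20 counts in all against 6. The difference was 1.75 on the log2 scale (SE 0.75, 95% interval 0.11 to 3.38) and did not pass the test (adjusted p = 0.0958 by edgeR). Counting error alone gave a ratio of 3.46 with an interval of 1.34 to 10.5. mtl-2 in the daf-16 strain was at 61.9 and 68.1 CPM at 20 °C and at 23.5 and 26.5 CPM after heat. It fell by 1.38 on the log2 scale (SE 0.08, adjusted p = 7.77e-07 by edgeR), so 1 of the 2 members passed, where 33% of all genes tested did.

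**Figure D2:**
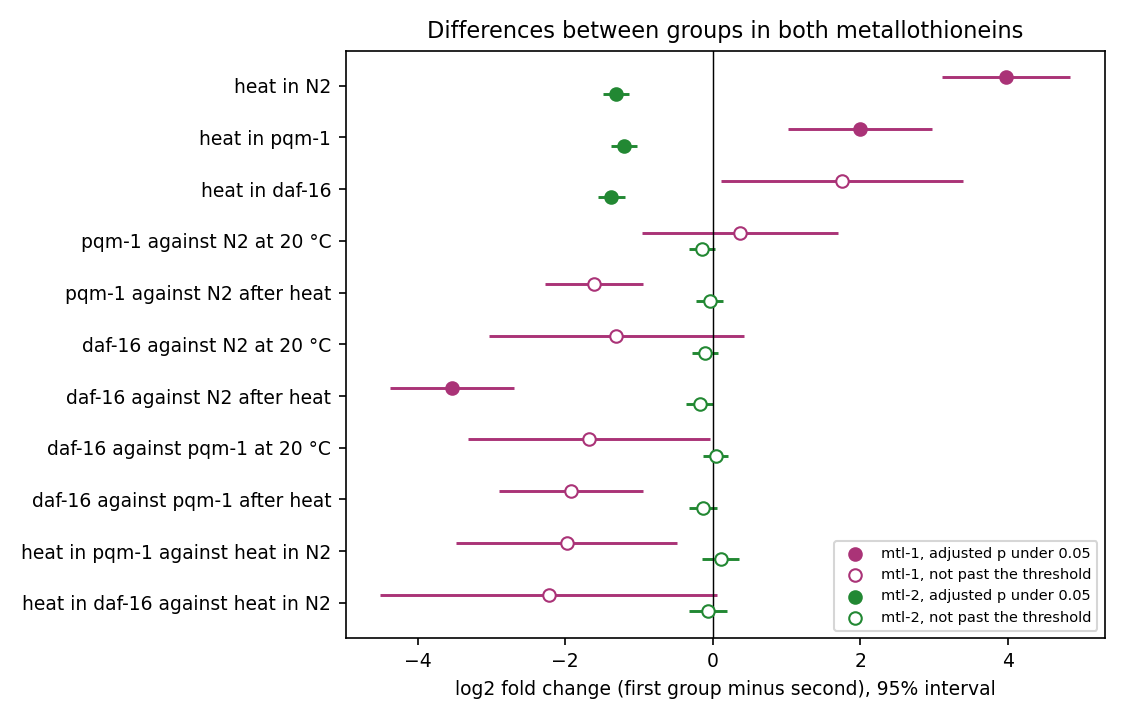
Fitted log2 differences of mtl-1 and mtl-2 in the comparisons made, with 95% intervals; filled points have an adjusted p under 0.05. For mtl-1 the rises with heat in N2 (3.97) and the pqm-1 strain (1.99) and the lower level of the daf-16 strain after heat (-3.53) are filled, and for mtl-2 only the 3 falls with heat are.

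Neither gene passed the test between a mutant and N2 at 20 °C. For mtl-1 the pqm-1 strain overlapped N2, with a difference of 0.37 on the log2 scale (SE 0.61, 95% interval -0.95 to 1.69, adjusted p = 0.886 by edgeR). The daf-16 libraries, at 0.0945 and 0.193 CPM, lay below the N2 libraries, on 6 counts in all against 16. The difference was -1.31 (95% interval -3.03 to 0.41, adjusted p = 0.392 by edgeR). Both intervals are wide and include 0. mtl-1 entered these tests through its heated libraries, since its 20 °C counts alone would not meet the filter on low counts. For mtl-2 the intervals were narrow, from -0.32 to 0.03 for pqm-1 and from -0.28 to 0.06 for daf-16 worms. The share of all genes tested that passed was 0.063% for the pqm-1 strain (0.056% as higher, 0.007% as lower) and 2.52% for the daf-16 strain (1.7% as higher, 0.819% as lower), and neither member was among them.

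After heat the libraries of both mutants lay below those of N2 in mtl-1, and the difference of the daf-16 strain passed the test. The daf-16 libraries, at 0.384 and 0.587 CPM, lay far below the N2 libraries at 6.09 and 5.47 CPM. The difference was -3.53 on the log2 scale (SE 0.39, 95% interval -4.37 to -2.69, adjusted p = 0.00107 by edgeR), the third lowest of all genes tested. That rank is descriptive only, since mtl-1 met the filter on low counts through heated libraries, of which those of N2 were highest. By counting error the N2 level was 11.6 times that of the daf-16 strain, with an interval of 7.37 to 19.2. It was the 1 member called, where 1.1% of all genes tested were, 0.532% as higher and 0.567% as lower. The pqm-1 libraries, at 1.67 and 2.12 CPM, lay between those of N2 and the daf-16 strain and overlapped neither. The difference of the pqm-1 strain from N2 was -1.61 on the log2 scale (SE 0.30, 95% interval -2.27 to -0.95) with an adjusted p of 0.0561 by edgeR, just short of the threshold, in a comparison where 0.245% of all genes tested passed, 0.21% as higher and 0.035% as lower. That p lay on the other side of the threshold under 4 other analysis settings and with each of 4 single libraries left out.

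The daf-16 strain was also set against the pqm-1 strain directly. After heat the daf-16 libraries lay below the pqm-1 libraries in mtl-1, with a difference of -1.92 on the log2 scale (SE 0.45, 95% interval -2.90 to -0.94) that did not pass (adjusted p = 0.07 by edgeR). Counting error gave a pqm-1 level 3.79 times that of the daf-16 strain, with an interval of 2.302 to 6.52. At 20 °C the libraries overlapped, with a difference of -1.68 (95% interval -3.32 to -0.04, adjusted p = 0.735 by edgeR) that ran from -2.43 to 0.012 as single libraries were left out, the latter without replicate 3 of the pqm-1 strain at 20 °C. No member passed in either comparison, where 1.11% after heat (0.329% as higher, 0.784% as lower) and 0.245% at 20 °C (0.105% as higher, 0.14% as lower) of all genes tested did.

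For mtl-2 the strains stayed close after heat as well. The N2 libraries were at 28.04 and 28.5 CPM, the pqm-1 libraries at 27.0 and 27.99 CPM and the daf-16 libraries at 23.5 and 26.5 CPM. The difference from N2 was -0.04 on the log2 scale (95% interval -0.22 to 0.14, adjusted p = 0.964 by edgeR) in the pqm-1 strain and -0.18 (95% interval -0.36 to 0.01, adjusted p = 0.311 by edgeR) in the daf-16 strain. A difference of over 1.5-fold between the strains lies outside both intervals.

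Whether heat acted differently on mtl-1 in the mutants was tested with interaction terms. In the pqm-1 strain its heat response differed from that of N2 by -1.98 on the log2 scale (SE 0.69, 95% interval -3.48 to -0.48, unadjusted p = 0.0138, adjusted p = 0.601 by edgeR). In the daf-16 strain the term was -2.22 (SE 1.05, 95% interval -4.50 to 0.06, unadjusted p = 0.055, adjusted p = 0.344 by edgeR). Neither passed, and edgeR called 0 of all genes tested, which is 0%, in either interaction, although 1110 and 2128 genes had an unadjusted p under 0.05 and DESeq2 called 6 and 69. The pqm-1 term rests on 1 library: without replicate 3 of the pqm-1 strain at 20 °C it was -0.30. For mtl-2 the terms were 0.10 (95% interval -0.15 to 0.36) and -0.07 (95% interval -0.32 to 0.19).

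The order of the group means for mtl-1 ran from the daf-16 strain at 20 °C, at 0.144 ± 0.0697 CPM (SD, n = 2), through N2 at 0.358 ± 0.0835 and the pqm-1 strain at 0.469 ± 0.462 at 20 °C. It went on to the heated daf-16 strain at 0.485 ± 0.144, the heated pqm-1 strain at 1.89 ± 0.320 and heated N2 at 5.78 ± 0.440 CPM (SD, n = 2 each). The libraries of the heated daf-16 strain overlapped those of unheated N2 and of the unheated pqm-1 strain, whose mean averages 2 libraries far apart. The heated pqm-1 and N2 groups were each clear of the group below them. For mtl-2 the 3 heated groups came first, at 24.99 ± 2.08 CPM in the daf-16 strain, 27.5 ± 0.702 in the pqm-1 strain and 28.3 ± 0.358 in N2. The unheated groups followed, at 63.4 ± 0.0101 CPM in the pqm-1 strain, 65.0 ± 4.43 in the daf-16 strain, which overlapped it, and 70.1 ± 2.76 in N2 (SD, n = 2 each).

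Because the coding lengths differ, the 2 genes were also compared per kilobase of coding sequence. On that scale mtl-2 stood above mtl-1 in each of the 12 libraries. In N2 at 20 °C mtl-2 averaged 365.3 CPM per kilobase and mtl-1 1.57, and after heat 147.4 and 25.4. The level of mtl-2 per length was 286.2 and 194.0 times that of mtl-1 in the N2 libraries at 20 °C, and 5.47 and 6.20 times after heat. In the pqm-1 strain the ratio was 529.6 and 94.7 at 20 °C and 19.2 and 15.7 after heat. For daf-16 worms the ratio was 777.2 and 418.9 and then 72.8 and 53.5. The gap thus narrowed with heat in every strain, and was widest in the daf-16 libraries after heat.

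Among all genes tested, ranked per length, mtl-2 was high in every group: 96.7% of genes lay below it in N2 at 20 °C and 93% after heat, and no group put it below 91.9%. mtl-1 moved from above 14.9% of genes to above 64.4% in N2. It moved from 17.6% to 39% in pqm-1 worms and from 6.52% to 17.7% in daf-16 worms. In heated N2 worms mtl-1 thus stood above most genes tested, and in the heated mutants below most of them.

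Read as a share of all metallothionein counts, mtl-1 made up 0.413% and 0.608% in the N2 libraries at 20 °C and 17.8% and 16.1% after heat, with 95% Wilson intervals of 15.4% to 20.6% and 14.1% to 18.3%. In the heated pqm-1 strain the share was 5.81% (4.28% to 7.85%) and 7.04% (5.27% to 9.35%). In the heated daf-16 strain mtl-1 took 1.61% (0.780% to 3.28%) and 2.17% (1.27% to 3.68%). The intervals of the 3 heated strains did not overlap one another. They cover counting error within a library only, and not the spread between libraries. At 20 °C the shares in the mutants ran from 0.153% to 1.24%, and each interval overlapped those of N2. Because mtl-2 carried most of the counts, the summed level of both genes was lower after heat in each strain, from 70.5 to 34.1 CPM in N2, from 63.8 to 29.4 in pqm-1 worms and from 65.1 to 25.5 in daf-16 worms.

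**Figure D3:**
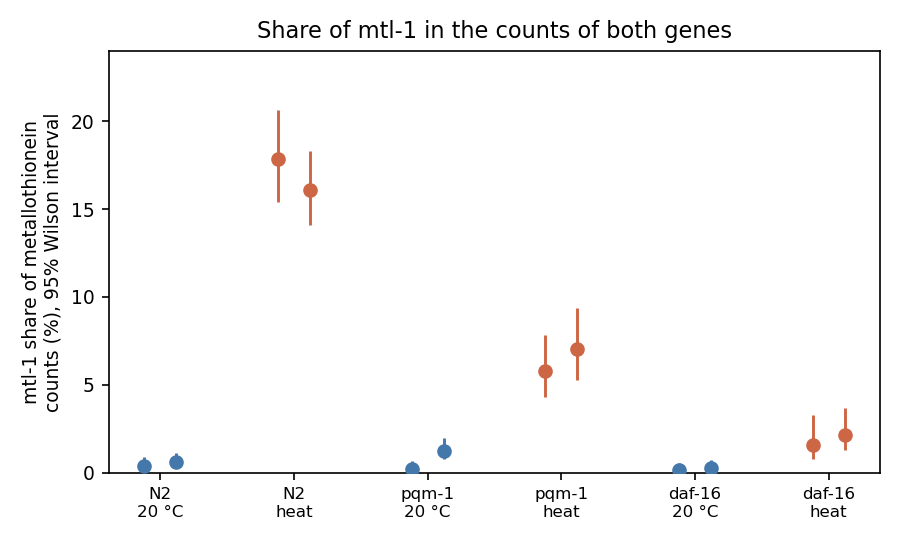
Share of mtl-1 in the summed counts of mtl-1 and mtl-2, in percent, in each of the 12 libraries, with 95% Wilson intervals. The heated N2 libraries are at 17.8% and 16.1%, the heated pqm-1 libraries at 5.81% and 7.04%, and the others at 2.17% or less.

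Of 10 genes tested that are known or proposed as regulators of mtl-1 or mtl-2, 0 rose and 1 fell with heat in N2, and 1 rose and 1 fell in each mutant. Over all genes tested, 34.7%, 25.1% and 33% passed with heat in N2, the pqm-1 and the daf-16 strain. The counts of regulators are thus not above the background. The one that fell was hizr-1, also counted among the metal handling genes, the nuclear receptor that senses high zinc and is known to activate mtl-1. Its log2 change was -1.14 in N2, between the others in the pqm-1 strain, and -1.64 in daf-16 worms (adjusted p = 0.021, 0.0319 and 0.00581 by edgeR). The one that rose was pqm-1 itself, by 0.85 in the pqm-1 strain and 0.84 in daf-16 worms. The GATA factor gene elt-2 did not pass in any strain, at 0.13, -0.11 and -0.61, and neither did daf-16, at 0.15, -0.07 and -0.18. No regulator passed between a mutant and N2, where between 0.063% and 2.52% of all genes tested did.

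Other metal handling genes were tested for the same contrasts: of 23 listed genes, 22 had a row and 20 were tested. With heat 3 rose and 4 fell in N2 (median 0.01 on the log2 scale), 3 rose and 7 fell in the pqm-1 strain (median -0.22), and 6 rose and 5 fell in the daf-16 strain (median -0.03), beside medians of 0.02, 0.01 and 0.03 over all genes tested. That is 7, 10 and 11 of 20 genes, where 34.7%, 25.1% and 33% of all genes tested passed, so the count in N2 is near the background. Of the rises, 2 in each strain are numr-1 and numr-2. The largest rises in N2 were those of numr-1 and numr-2, nuclear proteins induced by cadmium and other metals, which had equal counts in 12 of 12 libraries and so count as one measurement: 3.94, 3.78 and 4.82 in N2, the pqm-1 and the daf-16 strain (adjusted p = 0.000194, 0.000123 and 2.47e-05 by edgeR). cdr-4, of the cadmium-responsive family, rose by 2.12, 1.95 and 2.78. Of the same family, cdr-2 fell, at -1.12, -0.97 and -0.95, and so did cdr-6, at -0.66, -0.56 and -0.73.

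Further metal genes passed in 1 or 2 strains. hmt-1, a transporter of phytochelatins known for cadmium tolerance, fell in N2 (-0.37) and the daf-16 strain (-0.41), and cdf-2, a zinc transporter of gut granules, fell in the pqm-1 (-0.53) and daf-16 (-0.51) strains. The ferritin genes ftn-1 (-1.31) and ftn-2 (-0.40) fell in the pqm-1 strain, as did cdr-1 (-1.25). kreg-1, pcs-1, the phytochelatin synthase, and cua-1, a copper ATPase, rose in the daf-16 strain, by 3.06, 0.38 and 0.33. Differences in these responses between strains did not pass the interaction test for any of the 20 genes. In the 6 comparisons of strains, where between 0.063% and 2.52% of all genes tested passed, 0 of the 20 did, a count at the background.

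Of the 11 other DAF-16 targets listed, all tested, 5 rose and 0 fell with heat in N2 (median 0.52), 5 and 0 in the pqm-1 strain (median 0.50), and 3 and 1 in the daf-16 strain (median 0.16), where 34.7%, 25.1% and 33% of all genes tested passed in either direction. hsp-12.6, a small heat shock protein gene, had the largest rises, 2.76, 3.28 and 2.25, next to 3.97, 1.99 and 1.75 for mtl-1, the last of which did not pass. lea-1, related to desiccation tolerance proteins of plants, rose by 1.14, 0.90 and 0.78, and the catalase gene ctl-1 by 0.97, 0.63 and 0.34. In the daf-16 strain against N2 after heat 3 were lower and 0 higher (median -0.64, against 0.01 over all genes): nnt-1, a mitochondrial transhydrogenase, at -1.75, icl-1, the glyoxylate enzyme, at -0.82, and ctl-1 at -0.51. mtl-1, at -3.53, lay below all 3 of them. In that comparison 1.1% of all genes tested passed, 0.532% as higher and 0.567% as lower. At 20 °C only sip-1, a small heat shock protein gene, was lower in the daf-16 strain, at -1.06, and in the pqm-1 strain 0 of the 11 passed at either temperature. The share of all genes tested that passed was 2.52% for the daf-16 strain at 20 °C. For the pqm-1 strain it was 0.063% at 20 °C and 0.245% after heat.

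Against the pqm-1 strain after heat, 4 of the 11 DAF-16 targets were lower in the daf-16 strain and 0 higher (median -0.66). They were dod-3, with 3 and 1 counts in the daf-16 libraries against 119 and 42, nnt-1 at -1.99, sip-1 at -0.95 and sod-3, a mitochondrial superoxide dismutase, at -0.92. The heated N2 libraries had 10 and 14 counts of dod-3, or 0.417 and 0.409 CPM, also below the pqm-1 libraries at 5.08 and 2.07 CPM. In this comparison 1.11% of all genes tested passed, 0.329% as higher and 0.784% as lower. mtl-1, at -1.92, did not pass.

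**Figure D4:**
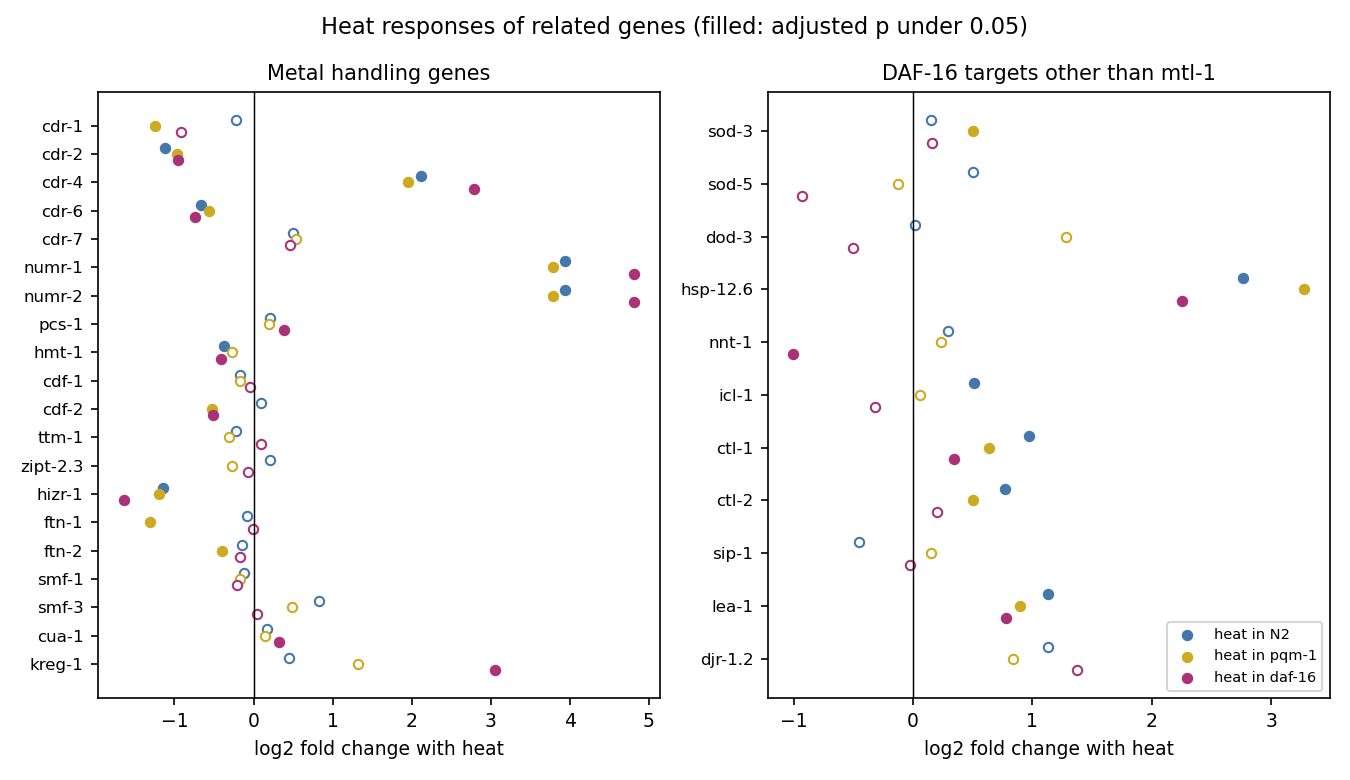
Log2 fold change with heat of the metal handling genes (left) and of DAF-16 targets other than mtl-1 (right) in each strain; filled points have an adjusted p under 0.05. numr-1, numr-2 and cdr-4 rose in the 3 strains, and hsp-12.6 rose most among the DAF-16 targets, by 2.76, 3.28 and 2.25.

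Some markers of the intestine, where the metallothioneins are known to be expressed, fell with heat. Of 9 intestinal markers, 4 fell in N2, 4 in pqm-1 worms and 5 in daf-16 worms, and 0 rose (medians -0.20, -0.23 and -0.61), where 34.7%, 25.1% and 33% of all genes tested passed in either direction. The peptide transporter gene pept-1 fell by 1.53, 2.00 and 1.73 on the log2 scale, and act-5, the actin of the microvilli, fell by 1.11, 0.96 and 0.96, next to 1.31, 1.21 and 1.38 for mtl-2. pho-1 and vha-6 fell in each strain too, and ges-1 in daf-16 worms. The transcription factor genes elt-2 (0.13, -0.11 and -0.61) and elt-7 (0.46, 0.21 and 0.12) and the intermediate filament genes ifb-2 (0.13, 0.02 and -0.0028) and ifc-2 (-0.12, -0.18 and -0.14) did not pass in any strain. The summed level of the 9 genes lay between 2716 and 2878 CPM in N2 at 20 °C and between 1615 and 2018 CPM after heat, between 2977 and 3054 and then 1794 and 1941 CPM in the pqm-1 strain, and between 3070 and 3169 and then 1876 and 2028 CPM in the daf-16 strain. Most of the lower sum in N2 was act-5, with means of 1263 CPM at 20 °C and 587 CPM after heat, while ifb-2 was at 382 and 418 CPM. No marker was at 0, and the part of these shifts in the fall of mtl-2 was not tested.

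The same markers were also compared between the heated strains. Between the daf-16 strain and N2 after heat 1 of the 9 intestinal markers passed, ges-1, the gut esterase, at -0.72. In that comparison 1.1% of all genes tested passed. The median of the 9 intestinal markers was 0.01, and mtl-1 was at -3.53. Whether tissue makeup has a part in the mtl-1 difference was not tested. Of 5 pharyngeal markers, only pha-4, the organ's FoxA factor, rose with heat in each strain, and 0 passed between strains. Of 5 oocyte markers, 5 fell with heat in N2, 3 in pqm-1 worms and 1 in daf-16 worms, and 0 passed between strains. Over all genes tested, 34.7%, 25.1% and 33% passed with heat in either direction in N2, the pqm-1 and the daf-16 strain. The oocyte counts in N2 and pqm-1 worms are above those shares, and that in daf-16 worms is not. Between strains 0.063% to 2.52% of all genes tested passed, so 0 of 5 in either list is at the background.

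The genes whose pattern was most like that of mtl-1, by Pearson correlation of log2 CPM across the 12 libraries, were T12D8.5 (r = 0.965), C01G10.1 (0.954), fbxa-27 (0.944), T05F1.11 (0.928) and srlf-7 (0.925), out of 12622 genes compared. The libraries share their groups and depths, and r describes likeness only. T12D8.5 was at 6.83 and 7.30 CPM in N2 at 20 °C and at 20.2 and 19.4 CPM after heat. It was at 4.64 and 6.45 and then 12.9 and 16.16 CPM in the pqm-1 strain, and at 4.63 and 4.35 and then 5.54 and 6.64 CPM in the daf-16 strain. Its heated groups stood in the same order as those of mtl-1, which its choice by correlation in these same libraries favours. For mtl-2 the most alike were R105.1, acp-6 and 21ur-14945 (r = 0.992 each), rpia-1 (0.991) and hrg-7 (0.990), while mtl-1 and mtl-2 correlated at -0.67.

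**Figure D5:**
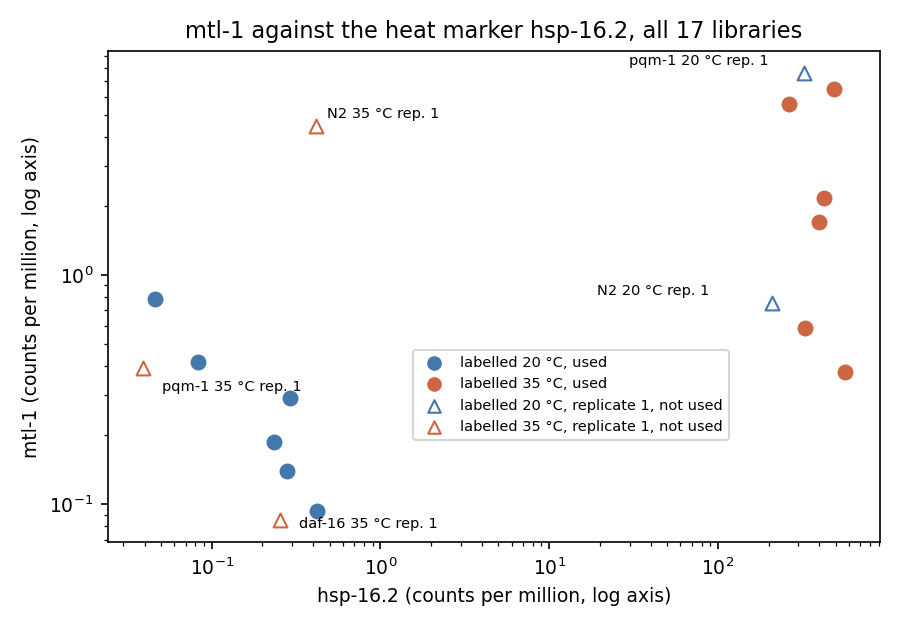
Level of mtl-1 against that of hsp-16.2 in all 17 libraries with counts, in CPM without composition factors, on log axes; circles are the 12 libraries used and triangles those labelled replicate 1. The triangle labelled N2 35 °C, at 4.45 CPM of mtl-1, stands apart from the 20 °C circles, although its hsp-16.2 level of 0.417 CPM is within their range.

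The 5 count libraries labelled replicate 1 entered none of these tests. By hsp-16.2 they fall on the side opposite to their label, and for mtl-2 they do too: it was at 67.2, 58.1 and 73.2 CPM in those labelled daf-16, N2 and pqm-1 at 35 °C, and at 24.8 and 31.1 CPM in those labelled N2 and pqm-1 at 20 °C. For mtl-1, the header read as displaced by 1 column would give the following comparisons, in CPM without composition factors. The library labelled pqm-1 20 °C would be heated N2, at 7.60 CPM where the 2 heated N2 libraries used were at 6.48 and 5.60. That labelled N2 20 °C would be the heated daf-16 strain, at 0.756 CPM beside 0.375 and 0.586. The library labelled daf-16 35 °C would be unheated daf-16, at 0.0852 CPM beside 0.0934 and 0.187, and that labelled pqm-1 35 °C unheated pqm-1, at 0.391 CPM between 0.139 and 0.783. Read so, these 4 libraries lie nearer to the libraries used of their displaced group than to those of the other temperature in that strain. The exception is the library labelled N2 35 °C, which would be unheated N2 but held 64 counts, or 4.45 CPM, beside 0.290 and 0.417. None of them was relabelled, and the values given above for heat in N2 are for replicates 2 and 3.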

How the data were processed

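The authors deposited estimated counts per RefSeq transcript for the whole series, per the file's header and values: 13.3% of non-zero values are not whole. The aligner, counter and build are not given in the sources used here. One value column holds lengths in bases, deposited under a sample's name; it equals the annotated coding length in 96.4% of 12275 coding genes with 1 transcript. Columns were matched by header name. If the header is displaced by 1 column, replicates 2 and 3 keep their groups, so those 12 columns were used. Of 50755 rows, 45910 matched a gene; the 4845 others, 23.4% to 24.3% of a library's counts, were left out. For genes with several transcripts, the one with most counts on average stands for the gene. Values were rounded; mtl-1 and mtl-2 needed no rounding in the columns used.

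All 6 groups were fitted together with edgeR 4.0.16 (R 4.3.3; filterByExpr, TMM, quasi-likelihood F-test), leaving 14286 genes and 6 residual degrees of freedom, with Benjamini-Hochberg adjustment over all genes and a threshold of 0.05. CPM are TMM-scaled unless stated. SDs are over 2 libraries. Counting intervals are exact Poisson or conditional binomial, and those of shares Wilson. The model was tested on simulated data. The members, gene lists and tests were chosen with earlier results of these data known. Genes named are the members, list genes that passed or that regulate the members, and the 5 genes most correlated with each member among those with a mean log2 CPM of at least 0. DESeq2 1.42.0, other scalings, filters, columns and left-out libraries were tried as alternatives.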

Additional observations from a re-analysis of the deposited data

Results flagged for a closer look

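Signals in the libraries labelled replicate 1, which no comparison used, lay above the 20 °C libraries used of the labelled strain. By hsp-16.2 those labelled 20 °C are heated, so unheated libraries are not their like. mtl-1 was at 0.756 CPM (17 counts) in the library labelled N2 20 °C, above 0.417 CPM in the higher N2 library used at 20 °C. It was at 7.60 CPM (229 counts) in the library labelled pqm-1 20 °C, above 0.783 CPM in the higher pqm-1 library used at 20 °C. With the header displaced by 1 column that library would be heated N2, whose libraries used were at 6.48 and 5.60 CPM, and the former would be the heated daf-16 strain, at 0.375 and 0.586 CPM. mtl-1 was at 4.45 CPM (64 counts) in the library labelled N2 35 °C, whose hsp-16.2 level was that of unheated worms. mtl-2 was at 67.2 CPM in the library labelled daf-16 35 °C and at 73.2 CPM in that labelled pqm-1 35 °C, above the highest unheated libraries used of the same strains, at 66.0 and 62.4 CPM, and both had unheated levels of hsp-16.2. These values are without composition factors, and whether the header is displaced was not tested.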

How the results depend on the processing

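The heat calls of mtl-2 in the 3 strains, of mtl-1 in N2 and the pqm-1 strain, and the lower mtl-1 of the daf-16 strain after heat held under each alternative and left-out library except when replicate 1 was included, every count column being matched by its name. That setting gave mtl-1 heat differences of 3.42 in N2 and, reversed, -1.09 in the pqm-1 strain, and -3.89 for the daf-16 strain against N2 after heat. It gave mtl-2 heat differences of -0.56, -0.31 and -0.68 in N2, the pqm-1 and the daf-16 strain, and reversed mtl-2 for the pqm-1 strain against N2 after heat (0.19) and the daf-16 strain against N2 at 20 °C (0.24) and after heat (0.13). None of these passed, and that fit called 0 genes in every comparison but the daf-16 against the pqm-1 strain after heat (6). The cause was not tested.

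For mtl-1 the pqm-1 strain against N2 after heat passed with DESeq2 (-1.62), no filter (-1.63), only the groups compared (-1.62) and the replicate block (-1.62). The daf-16 against the pqm-1 strain after heat passed with DESeq2 (-1.94) and no filter (-1.92), and no filter also passed heat in the daf-16 strain (1.71) and the pqm-1 interaction (-1.998). In their deviations from the group means, same-numbered libraries of 15 group pairs correlated at -0.24 to 0.22, 1 above 0.1. Weak correlations of this kind cannot settle whether the numbers pair the cultures. The block called 16 genes for the pqm-1 strain against N2 at 20 °C and moved no other count by over 1.5 times.

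Counts of genes called moved more. DESeq2 called 101 and 88 genes for the pqm-1 strain against N2 at 20 °C and after heat, 59 for the daf-16 against the pqm-1 strain at 20 °C, and 6 and 69 in the pqm-1 and daf-16 interactions. With library-size scaling 236 were called for the daf-16 strain against N2 after heat. Without a filter the counts at 20 °C and after heat were 545 and 286 for the pqm-1 strain against N2, 1299 and 1095 for the daf-16 strain against N2, and 215 and 777 for the daf-16 against the pqm-1 strain, with 280 and 789 in the interactions. With only the groups compared they were 18 for the pqm-1 strain at 20 °C, 182 and 25 for the daf-16 strain against N2, and 88 and 76 for the daf-16 against the pqm-1 strain.

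With 1 library left out at a time, where a lone library is assumed to vary like the other groups, called genes numbered 3294 to 5254 for heat in N2, 2022 to 3925 in pqm-1 worms and 3059 to 4789 in daf-16 worms. They numbered 6 to 17 at 20 °C and 14 to 69 after heat for the pqm-1 strain against N2, 5 to 638 and 34 to 383 for the daf-16 strain against N2, 15 to 49 and 44 to 251 for the daf-16 against the pqm-1 strain, and 0 to 2 and 0 to 75 in the interactions. mtl-1 for the pqm-1 strain against N2 after heat ranged from -1.79 to -1.44 and passed in 4 of 12 fits, without either heated daf-16 library or either pqm-1 library at 20 °C. Without either of the latter, heat in the daf-16 strain (1.33 to 2.32 over the 12 fits) and the daf-16 against the pqm-1 strain after heat (-2.28 to -1.67) passed too. Directions turned at 20 °C for mtl-1 in the pqm-1 strain against N2 (-1.32 to 1.12) and in the daf-16 against the pqm-1 strain (-2.43 to 0.012), and for mtl-2 in the latter (-0.035 to 0.11) and in the daf-16 interaction (-0.16 to 0.010).

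Library-size scaling shifted the median of all genes by less than 0.1 but the share of calls that were higher from 48.6% to 61.8% for heat in N2, from 49.9% to 61% for heat in the pqm-1 strain, from 48.4% to 21.6% for the daf-16 strain against N2 after heat and from 29.6% to 19.3% for the daf-16 against the pqm-1 strain after heat. Depth limits mtl-1 at 20 °C, with 2 to 17 counts a library.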
